A study of Mus musculus with 20 samples.

Results

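The BCL-2 family decides whether mitochondria open and start apoptosis, and 10 of its genes were followed across mouse Th17 cells with and without the IL-6 receptor gene Il6ra. They are the anti-apoptotic genes Bcl2, Bcl2l1 and Mcl1, the pore-forming effectors Bax and Bak1, and the BH3-only genes Bcl2l11, Bbc3, Pmaip1, Bid and Bmf. They were taken by symbol as named members of the family, with no threshold on their values, and all 10 were found among the 39179 gene IDs counted in each of the 20 libraries. All 10 passed the filter on low counts in both parts of the study.

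Anti-apoptotic members hold effectors and BH3-only members in check by binding them. When BH3-only members outnumber that capacity, BAX and BAK oligomerise in the outer mitochondrial membrane and let cytochrome c out, which activates caspases. Resting T cells are known to depend on BCL-2 and MCL-1, activated T cells gain BCL-xL, the main product of Bcl2l1, and BIM, the product of Bcl2l11, is the BH3-only protein best known for removing T cells after a response. Signals from cytokines of the IL-2, IL-6 and IL-7 groups raise anti-apoptotic members in many settings.

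The RNA-seq study had 2 parts, each of 10 libraries of CD4 T cells from C57BL/6 mice carrying an Il17f reporter that puts Thy1.1 on the cell surface. In the transfer part, Il6ra-/- cells (CD45.2) and wild-type (WT) cells (CD45.1) were grown as Th17 precursors for 6 days with 2.5 ng/ml TGF-b plus 20 ng/ml of hyper-IL-6, sorted as Thy1.1+, and 200000 of each were given together to the same Rag1-/- hosts. Hyper-IL-6 is IL-6 fused to its soluble receptor, so it acts on cells that lack Il6ra. Live CD4+TCRb+ cells were sorted from the colon by CD45 allele 4 weeks later.

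The transfer groups were Il6ra-/- colon (3 libraries), WT colon (3), Il6ra-/- before transfer (2) and WT before transfer (2). Library 0 of each group came from experiment 1, and libraries 1 and 2 from experiment 2. The culture part held Il6ra-/- cells with hyper-IL-6 at 63 ng/ml, WT cells with the same hyper-IL-6, WT cells with IL-6 at 20 ng/ml, Il6ra-/- naive cells and WT naive cells, with 2 libraries each, all labelled as carrying the reporter as Hz. Cultured cells had 6 days with irradiated antigen-presenting cells and TGF-b at 2.5 ng/ml and were Thy1.1+, and a 4 hour stimulation with PMA and ionomycin before sorting is given for the whole culture part, naive cells included. Whether the naive cells were in fact stimulated could not be settled. Culture and stimulation therefore cannot be told apart with certainty in the comparisons with naive cells. Each colon library is labelled as a pool, Rag1-/- hosts make no mature T or B cells themselves, and the reporter gate was used before transfer but not in the colon. Nothing in the labels ties libraries of 1 group to separate animals; p-values therefore reflect only how much these libraries vary, which may be technical.

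On GRCm38, Bcl2 (ENSMUSG00000057329) lies on the minus strand at chr1:106538178-106714274, 31.3 Mb from Ptprc, the CD45 gene whose alleles mark the donors. Mcl1 (ENSMUSG00000038612) lies on the plus strand at chr3:95658788-95663176, 5.75 Mb from Il6ra. Bcl2l1 lies at chr2:152780668-152831728, Bcl2l11 at chr2:128126038-128162547, Bmf at chr2:118528757-118549687, Bax at chr7:45461697-45466898, Bbc3 at chr7:16308393-16318205, Bak1 at chr17:27019810-27029009, Pmaip1 at chr18:66458533-66465565 and Bid at chr6:120891930-120916853. Exons of 3 members share bases with overlapping genes. For Bid, 628 bases are shared with Bcl2l13, and for Bak1, 437 with Ggnbp1, both on the other strand. For Bcl2, 558 bases are shared with D630008O14Rik on the other strand, Mir3473f on the same strand, or both. All files carry the word reverse in their names, a usual term for counting the opposite strand of a stranded kit, but no label states the strand setting, so small differences of these 3 are uncertain.

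Counts assigned to genes ran from 12718633 to 23745060 in transfer libraries and from 20160774 to 46848016 in culture libraries. The smallest count behind a member level was 12, for Pmaip1 in WT naive library 2, and Mcl1 never had fewer than 8317. Levels are given in CPM (counts scaled to library size after trimmed-mean, TMM, scaling), set within each part, and levels of the 2 parts are not compared. Il6ra ran from 31.8 to 32.3 CPM in Il6ra-/- cultures and from 39.2 to 39.8 CPM in WT hyper-IL-6 cultures, so whole-gene counts do not check the genotype labels. The summed level of 8 T cell markers was at least 2232 CPM in every library. The summed level of 6 Th17 markers was 59.2 to 157 CPM in Il6ra-/- colon libraries and 335 to 618 CPM in WT colon libraries, against 782 to 1514 CPM in Il6ra-/- and 891 to 2661 CPM in WT libraries before transfer. In culture it was 2580 to 4655 CPM and in naive cells 0.465 to 3.18 CPM, with Il17a and Il23r at 0 in both naive libraries numbered 1.

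Start-site windows of 250 bases before to 50 after the RefSeq gene start (GRCm38.p6) were searched for members other than Pmaip1, which gave 16 windows for 9 genes. On both strands, 7 motifs were searched, FOXO (GTAAACA), STAT (TTCNNNGAA), E-box (CACGTG), AP-1 (TGANTCA), RUNX (TGTGGT), NFAT (GGAAA) and KLF (CACCC). FOXO factors are known to activate Bcl2l11 and Bbc3 when survival cytokines are withdrawn. The FOXO letters were in 2 of the 16 member windows, both of these genes, beside 3.65% of all 32851 windows. They are shown because both genes fell in culture, while after transfer Bcl2l11 rose in WT cells and Bbc3 did not pass the test. Capitals mark the FOXO letters. They begin 227 bases before the start in Bcl2l11 (chr2:128125788-128126087, plus strand). In Bbc3 they begin 167 bases before it (chr7:16310011-16310310, plus strand) and are read from the other strand. This Bbc3 window lies inside the gene span given above, at a start downstream of the first base of the gene. A match describes the letters and is not evidence of binding.
Bcl2l11: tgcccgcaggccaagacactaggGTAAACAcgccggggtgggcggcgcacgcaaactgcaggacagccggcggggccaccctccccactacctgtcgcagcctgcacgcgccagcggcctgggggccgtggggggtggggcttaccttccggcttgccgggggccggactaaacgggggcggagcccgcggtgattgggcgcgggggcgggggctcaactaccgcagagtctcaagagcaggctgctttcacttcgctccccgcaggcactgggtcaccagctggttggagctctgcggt
Bbc3: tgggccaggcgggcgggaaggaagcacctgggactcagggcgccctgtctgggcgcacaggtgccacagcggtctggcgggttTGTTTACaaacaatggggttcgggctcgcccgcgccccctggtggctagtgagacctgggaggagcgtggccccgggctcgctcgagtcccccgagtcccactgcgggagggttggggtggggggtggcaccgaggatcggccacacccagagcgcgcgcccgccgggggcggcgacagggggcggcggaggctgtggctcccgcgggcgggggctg
Of the other motifs, the E-box was in windows of Bax and Bbc3 (7.15% of all windows) and the RUNX letters in windows of Bak1 and Bmf (16.8%). The NFAT and KLF letters are in 61.3% and 57.5% of all windows and in 11 member windows each. The STAT and AP-1 letters were in 0 member windows, against 8.3% and 7.81% of all windows.

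In Th17 culture the anti-apoptotic genes moved in opposite directions. Bcl2l1 rose 12.3- to 13.1-fold over naive cells, Bcl2 fell 2.43- to 3.60-fold and Mcl1 fell 2.10- to 2.15-fold, across Il6ra-/- hyper-IL-6, WT hyper-IL-6 and WT IL-6 cultures. Among pro-apoptotic genes, Pmaip1 rose 20.9- to 24.8-fold and Bak1 1.94- to 2.32-fold, while Bbc3 fell 7.26- to 9.60-fold and Bcl2l11 2.46- to 3.50-fold. By edgeR's quasi-likelihood test with Benjamini-Hochberg adjustment over 14926 genes and a threshold of 0.05, 8 of 10 members passed in Il6ra-/- cells with hyper-IL-6, against 72% of all genes. In WT cells 8 passed with hyper-IL-6, against 70.3% of all genes, and 9 with IL-6, against 70.6%, so the members' share is near that of genes at large. With hyper-IL-6, 4 members rose and 4 fell in each genotype, beside 37.5% and 34.4% of all genes in Il6ra-/- cells and 36.8% and 33.5% in WT cells. With IL-6 5 rose and 4 fell, beside 37% and 33.6% of all genes, and the WT comparisons share their naive libraries. Groups did not overlap for 10, 9 and 9 members in Il6ra-/- hyper-IL-6, WT hyper-IL-6 and WT IL-6 cells, beside 86.6%, 84.8% and 83.5% of all genes.

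Bcl2l1 encodes BCL-xL, which guards mitochondria in activated cells. It was at 245 and 260.2 CPM in Il6ra-/- hyper-IL-6, 234 and 263 CPM in WT hyper-IL-6 and 228 and 237 CPM in WT IL-6 cultures, against 19.8 and 19.4 CPM in Il6ra-/- and 22.4 and 15.6 CPM in WT naive libraries. Every cultured library was above every naive one and the cultures lay within a narrow band. The log2 fold change was 3.69 ± 0.15 (SE) in Il6ra-/- cells with hyper-IL-6 (edgeR adjusted p = 5.85e-09), 3.71 ± 0.15 in WT cells with hyper-IL-6 (edgeR adjusted p = 5.79e-09) and 3.62 ± 0.15 with IL-6 (edgeR adjusted p = 6.65e-09).

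Bcl2, the founding survival gene of the family, moved the other way. Its level was 94.3 and 73.1 CPM in Il6ra-/- hyper-IL-6, 85 and 90.6 CPM in WT hyper-IL-6 and 81.5 and 92.5 CPM in WT IL-6 cultures, against 264 and 339 CPM in Il6ra-/- and 191 and 235 CPM in WT naive libraries. Cultured and naive libraries did not overlap, and the naive libraries were the more spread. The log2 fold change was -1.85 ± 0.16 (SE) in Il6ra-/- cells with hyper-IL-6 (edgeR adjusted p = 1.62e-06), -1.28 ± 0.16 in WT cells with hyper-IL-6 (edgeR adjusted p = 2.96e-05) and -1.29 ± 0.16 with IL-6 (edgeR adjusted p = 2.73e-05). Mcl1, whose short-lived product is needed by T cells at all stages, was at 399.9 and 409 CPM in Il6ra-/- hyper-IL-6, 406 and 398 CPM in WT hyper-IL-6 and 397 and 429.5 CPM in WT IL-6 cultures, against 862 and 847 CPM in Il6ra-/- and 1034 and 699.8 CPM in WT naive libraries. The cultures differed by less than the 2 WT naive libraries did. Its log2 fold change was -1.08 ± 0.15 (SE) in Il6ra-/- cells with hyper-IL-6 (edgeR adjusted p = 6.04e-05), -1.11 ± 0.15 in WT cells with hyper-IL-6 (edgeR adjusted p = 5.20e-05) and -1.07 ± 0.15 with IL-6 (edgeR adjusted p = 6.82e-05).

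**Figure D1:**
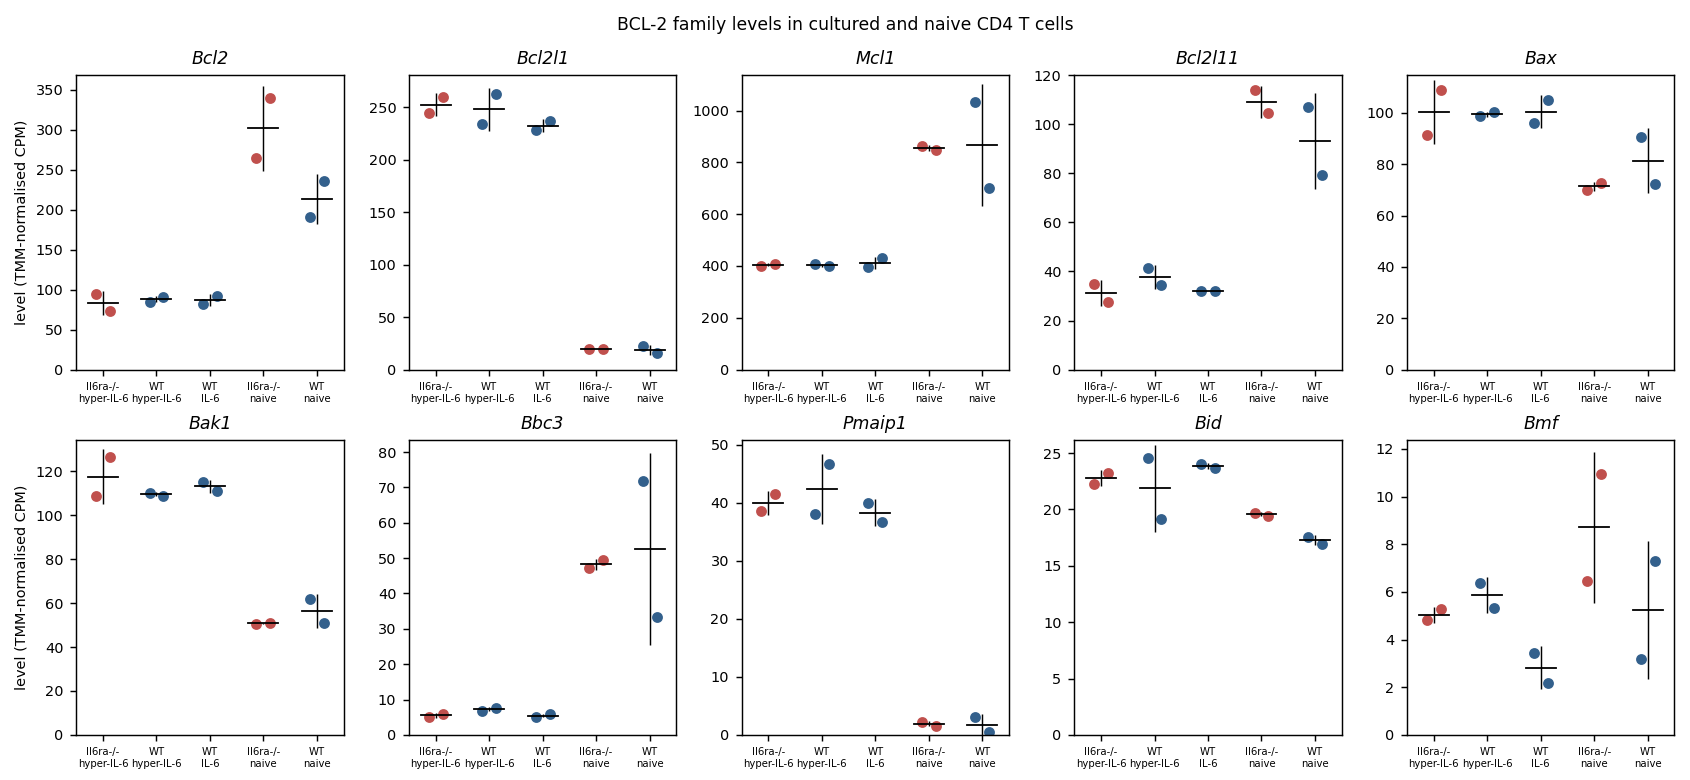
Level of each of the 10 genes (TMM-scaled CPM, linear axis from 0) in the 10 libraries of the culture part, by group; points are libraries, bars the mean and vertical lines the SD (n = 2 per group, Il6ra-/- red, WT blue). Bcl2l1, Bak1 and Pmaip1 are higher in every cultured library than in every naive one, and Bcl2, Mcl1, Bcl2l11 and Bbc3 are lower.

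The effectors Bax and Bak1 form the pores in the outer mitochondrial membrane. Bak1 was at 109 and 127 CPM in Il6ra-/- hyper-IL-6, 110.3 and 109 CPM in WT hyper-IL-6 and 115 and 111 CPM in WT IL-6 cultures, against 50.7 and 50.7 CPM in Il6ra-/- and 61.9 and 51.0 CPM in WT naive libraries. All cultures were above all naive libraries, at log2 fold changes of 1.21 ± 0.11 (SE) in Il6ra-/- cells (edgeR adjusted p = 2.49e-06), 0.96 ± 0.11 in WT cells with hyper-IL-6 (edgeR adjusted p = 1.68e-05) and 1.01 ± 0.11 with IL-6 (edgeR adjusted p = 1.12e-05). Bax had 91.5 and 109 CPM in Il6ra-/- hyper-IL-6, 98.8 and 100.2 CPM in WT hyper-IL-6 and 95.9 and 105 CPM in WT IL-6 cultures, against 70.0 and 72.7 CPM in Il6ra-/- and 90.4 and 72.4 CPM in WT naive libraries. Again no cultured library was as low as a naive one, but the gap was small. The log2 fold change of Bax was 0.49 ± 0.12 (SE) in Il6ra-/- cells (edgeR adjusted p = 0.00414), 0.29 ± 0.12 in WT cells with hyper-IL-6 (edgeR adjusted p = 0.0536) and 0.30 ± 0.12 with IL-6 (edgeR adjusted p = 0.0444). The WT values turned on single libraries and on the fit. Without WT naive library 1 the hyper-IL-6 value was 0.48 (edgeR adjusted p = 0.00534). The IL-6 call was lost without WT naive library 2 (0.16, edgeR adjusted p = 0.254), without WT IL-6 library 1 (0.38, edgeR adjusted p = 0.0566) and without WT IL-6 library 2 (0.25, edgeR adjusted p = 0.182). It was also lost with RLE size factors (edgeR adjusted p = 0.0692), with the compared groups only (0.133) and in DESeq2 (0.0706).

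The BH3-only genes split. Pmaip1, which encodes NOXA, an antagonist chiefly of MCL-1, was at 38.6 and 41.5 CPM in Il6ra-/- hyper-IL-6, 38.1 and 46.7 CPM in WT hyper-IL-6 and 39.9 and 36.7 CPM in WT IL-6 cultures, against 2.27 and 1.60 CPM in Il6ra-/- and 3.03 and 0.508 CPM in WT naive libraries. It was barely detected in naive cells and clearly present in every culture. The increase on the log2 scale was 4.39 ± 0.42 (SE) in Il6ra-/- cells (edgeR adjusted p = 3.32e-06), 4.63 ± 0.43 in WT cells with hyper-IL-6 (edgeR adjusted p = 2.63e-06) and 4.48 ± 0.43 with IL-6 (edgeR adjusted p = 3.34e-06). The size in WT cells depends on which naive library is used, at 6.39 with hyper-IL-6 and 6.25 with IL-6 without WT naive library 1, and 3.81 and 3.67 without WT naive library 2.

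Bbc3, which encodes PUMA, a p53- and FOXO-responsive killer, had 5.06 and 5.91 CPM in Il6ra-/- hyper-IL-6, 6.84 and 7.61 CPM in WT hyper-IL-6 and 5.13 and 5.81 CPM in WT IL-6 cultures, against 47.2 and 49.3 CPM in Il6ra-/- and 71.8 and 33.3 CPM in WT naive libraries. Cultures and naive libraries were far apart, at log2 fold changes of -3.14 ± 0.30 (SE) in Il6ra-/- cells (edgeR adjusted p = 3.33e-06), -2.86 ± 0.29 in WT cells with hyper-IL-6 (edgeR adjusted p = 6.01e-06) and -3.26 ± 0.30 with IL-6 (edgeR adjusted p = 2.54e-06). Without WT naive library 1 the WT values were -2.18 with hyper-IL-6 and -2.59 with IL-6. Bcl2l11, the BIM gene, was at 34.8 and 27.6 CPM in Il6ra-/- hyper-IL-6, 41.3 and 34.4 CPM in WT hyper-IL-6 and 32.2 and 31.9 CPM in WT IL-6 cultures, against 114 and 105 CPM in Il6ra-/- and 107 and 79.4 CPM in WT naive libraries. It was below every naive library in every culture, with log2 fold changes of -1.81 ± 0.16 (SE) in Il6ra-/- cells (edgeR adjusted p = 1.91e-06), -1.30 ± 0.16 in WT cells with hyper-IL-6 (edgeR adjusted p = 2.54e-05) and -1.54 ± 0.16 with IL-6 (edgeR adjusted p = 6.86e-06).

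Bid, whose product links death receptors to mitochondria, had small differences. Its mean level was 22.8 ± 0.69 CPM (SD, n = 2) in Il6ra-/- hyper-IL-6, 21.9 ± 3.87 CPM in WT hyper-IL-6 and 23.9 ± 0.29 CPM in WT IL-6 cultures, against 19.6 ± 0.21 CPM in Il6ra-/- and 17.3 ± 0.46 CPM in WT naive cells. It passed with IL-6 (log2 fold change 0.47 ± 0.14 (SE), edgeR adjusted p = 0.00974) and in WT cells with hyper-IL-6 (0.34 ± 0.14, edgeR adjusted p = 0.0422), not in Il6ra-/- cells (0.22 ± 0.13, edgeR adjusted p = 0.168). The WT hyper-IL-6 call was lost without WT hyper-IL-6 library 1 (edgeR adjusted p = 0.386), WT naive library 1 (0.0572) or WT naive library 2 (0.108). It was also lost with RLE size factors (0.0560), with the compared groups only (0.143) and in DESeq2 (0.0673). Bmf, a BH3-only gene tied to detachment and metabolic stress, was low throughout, at 2.19 to 6.38 CPM in cultures against 3.18 to 11.0 CPM in naive libraries, and passed in 0 of the 3 comparisons. Its log2 fold change was -0.79 ± 0.38 (SE) in Il6ra-/- cells, 0.15 ± 0.38 in WT cells with hyper-IL-6 and -0.89 ± 0.39 with IL-6. It passed when 1 library was left out, Il6ra-/- naive library 1 in Il6ra-/- cells (edgeR adjusted p = 0.0417) and WT naive library 1 with IL-6 (edgeR adjusted p = 0.00516), and with IL-6 in DESeq2 (adjusted p = 0.0367). Over the fits that left out 1 library the value ran from -1.10 to -0.35 in Il6ra-/- cells, from -0.30 to 0.89 in WT cells with hyper-IL-6 and from -1.33 to -0.15 with IL-6. The ends of each range come from leaving out a naive library, so its direction with hyper-IL-6 in WT cells depends on 1 library. The median log2 fold change of the 10 genes was -0.29, 0.22 and -0.29 in Il6ra-/- hyper-IL-6, WT hyper-IL-6 and WT IL-6 cells, beside 0.04, 0.04 and 0.05 over all genes tested. The 10 myeloid markers summed to 7.16 to 8.99 CPM in Il6ra-/- and 6.80 to 27.3 CPM in WT hyper-IL-6 cultures, against 23.6 to 29.4 CPM in Il6ra-/- and 26.9 to 27.2 CPM in WT naive cells. The 6 stromal and endothelial markers summed to 3.70 to 5.20 CPM in Il6ra-/- and 5.11 to 6.22 CPM in WT hyper-IL-6 cultures, against 270 to 293 CPM in Il6ra-/- and 245 to 310.4 CPM in WT naive cells. That list was mostly Pecam1, at 5.03 and 6.03 CPM in Il6ra-/- and WT hyper-IL-6 library 1, against 268 and 244 CPM in Il6ra-/- and WT naive library 1. Their part in the member levels was not tested.

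Of the members that passed the test after transfer, only Bmf had not passed in any culture comparison. Where they passed, Bcl2l1, Bcl2l11 and Bax moved opposite to their change in culture. Relative to the cells before transfer, Bcl2 fell 2.69-fold in Il6ra-/- and 2.91-fold in WT cells and Bmf fell 6.68-fold and 4.45-fold, and in WT cells Bcl2l1 fell 1.91-fold, Bax fell 2.16-fold and Bcl2l11 rose 3.24-fold. Mcl1, Bak1, Bbc3, Pmaip1 and Bid did not pass in either genotype. With experiment as a term, Pmaip1 passed in WT cells (0.84, edgeR adjusted p = 0.0413) and Bcl2l11 in Il6ra-/- cells (1.23, edgeR adjusted p = 0.0139). Of the 10 members, 2 passed in Il6ra-/- cells, both lower, against 27% of all 14225 genes tested (13.8% higher and 13.2% lower), and 5 in WT cells, 1 higher and 4 lower, against 32.9% of all genes (17.1% higher and 15.8% lower). Groups did not overlap for 5 members in Il6ra-/- and 7 in WT cells, beside 59.1% and 55% of all genes. The difference between the genotypes in this change was tested for each member, and 0 of 10 passed in edgeR and 0 in DESeq2. In edgeR 0% of all genes passed, and an unadjusted p under 0.05 was reached by 0 members and 377 of 14225 genes.

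Bcl2 was at 181, 245 and 220.4 CPM in Il6ra-/- colon libraries and 139.7, 158 and 155 CPM in WT colon libraries, against 477 and 681 CPM in Il6ra-/- and 536 and 343 CPM in WT libraries before transfer. Every colon library was below every library before transfer. Bcl2 had a log2 fold change of -1.43 ± 0.24 (SE) in Il6ra-/- cells (edgeR adjusted p = 0.00167) and -1.54 ± 0.24 in WT cells (edgeR adjusted p = 0.00104). Within experiments 1 and 2 the log2 ratio of means was -1.40 and -1.55 in Il6ra-/- cells and -1.94 and -1.13 in WT cells.

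Bcl2l1 was at 49.5, 43.7 and 38.7 CPM in Il6ra-/- and 38.7, 32.0 and 33.8 CPM in WT colon libraries, against 67.2 and 49.7 CPM in Il6ra-/- and 61.7 and 71.5 CPM in WT libraries before transfer. The WT groups were well separated, while the highest Il6ra-/- colon library was close to the lower one before transfer. Bcl2l1 had a log2 fold change of -0.41 ± 0.20 (SE) in Il6ra-/- cells (edgeR adjusted p = 0.165) and -0.93 ± 0.20 in WT cells (edgeR adjusted p = 0.00609), and the test of their difference gave 0.52 ± 0.29 (edgeR adjusted p = 0.953). Mcl1 was at 633, 728 and 667 CPM in Il6ra-/- and 585, 697 and 749.6 CPM in WT colon libraries, against 554 and 832 CPM in Il6ra-/- and 599.7 and 787 CPM in WT libraries before transfer. The stages overlapped fully, with log2 fold changes of -0.04 (95% interval -0.55 to 0.48) in Il6ra-/- cells and -0.03 (95% interval -0.55 to 0.48) in WT cells.

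**Figure D2:**
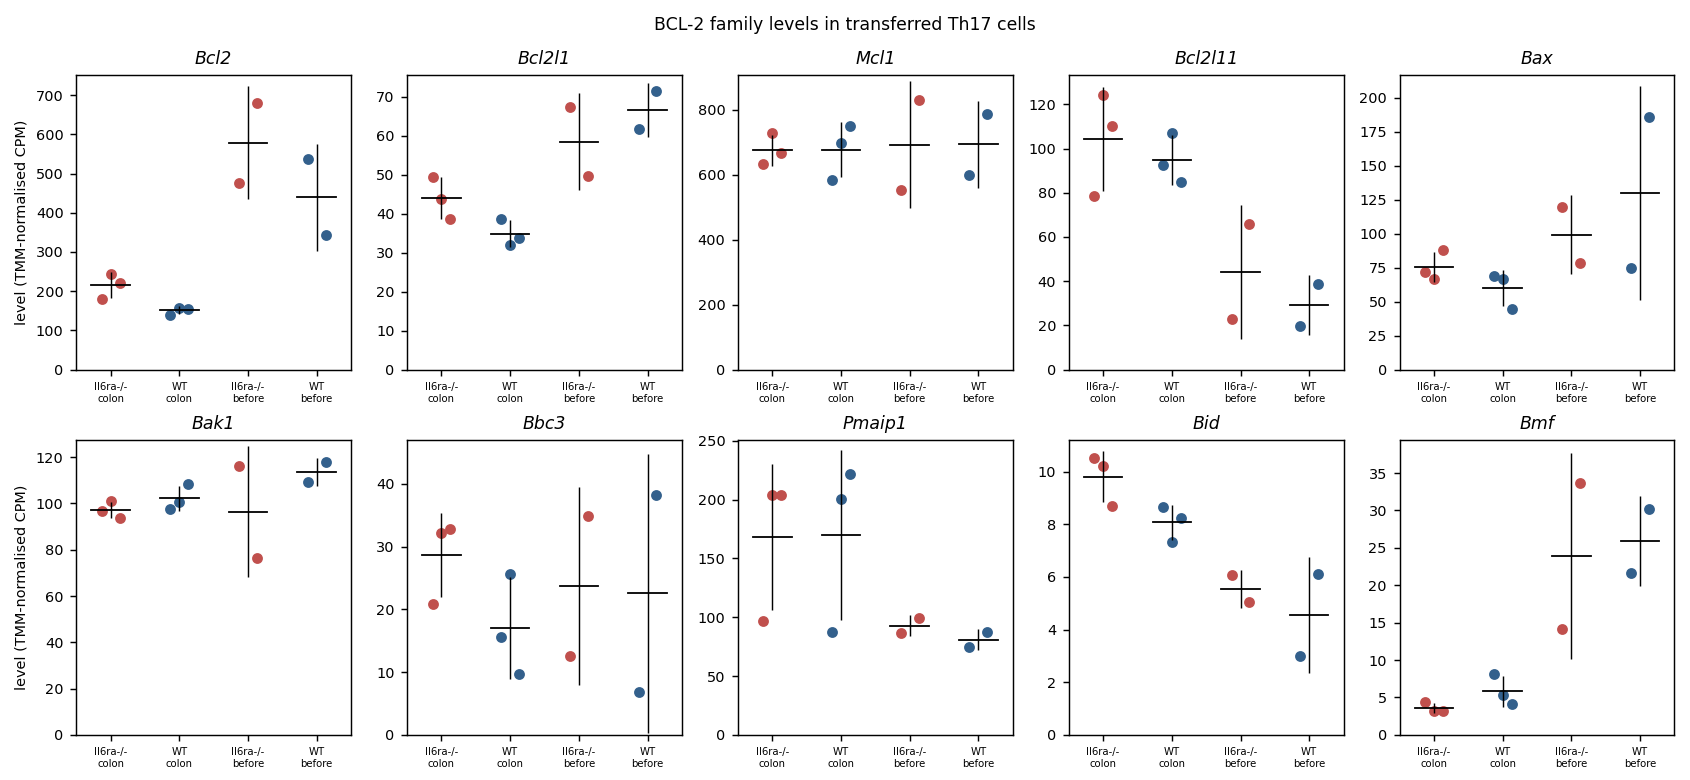
Level of each of the 10 genes (TMM-scaled CPM, linear axis from 0) in the 10 libraries of the transfer part, by group; points are libraries, bars the mean and vertical lines the SD (n = 3 in colon groups and 2 before transfer, lower SD limits stopped at 0, Il6ra-/- red, WT blue). Bcl2 and Bmf are lower and Bcl2l11 higher in every colon library than in every library before transfer, and Pmaip1 is high in 4 of the 6 colon libraries.

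Bcl2l11, whose product is bound by BCL-2, lay on the other side. It was at 78.6, 124 and 110.3 CPM in Il6ra-/- and 92.4, 107 and 84.8 CPM in WT colon libraries, against 22.8 and 65.8 CPM in Il6ra-/- and 19.6 and 38.8 CPM in WT libraries before transfer. The stages did not overlap, but libraries 1 before transfer were above libraries 0 in both genotypes. Bcl2l11 had a log2 fold change of 1.24 ± 0.43 (SE) in Il6ra-/- cells (edgeR adjusted p = 0.0534) and 1.70 ± 0.44 in WT cells (edgeR adjusted p = 0.0137). The WT value was 1.30 without WT library 0 before transfer (edgeR adjusted p = 0.0651). The Il6ra-/- value was 2.19 without Il6ra-/- library 1 before transfer (edgeR adjusted p = 0.00726) and 0.64 without library 0. It also passed with no filter on low counts (edgeR adjusted p = 0.00687), with the replicate block (edgeR adjusted p = 0.0105) and in DESeq2 (adjusted p = 0.0178). Within experiments 1 and 2 the log2 ratio was 1.79 and 0.83 in Il6ra-/- cells and 2.23 and 1.30 in WT cells, higher in the colon in all 4.

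Bmf had 4.33, 3.21 and 3.15 CPM in Il6ra-/- and 8.09, 5.30 and 4.08 CPM in WT colon libraries, against 14.2 and 33.7 CPM in Il6ra-/- and 21.7 and 30.2 CPM in WT libraries before transfer. No colon library reached a level seen before transfer. Bmf had a log2 fold change of -2.74 ± 0.41 (SE) in Il6ra-/- cells (edgeR adjusted p = 0.000771), or -1.99 without Il6ra-/- library 1 before transfer, and -2.16 ± 0.40 in WT cells (edgeR adjusted p = 0.00268). Bax had 71.7, 66.6 and 87.7 CPM in Il6ra-/- and 68.9, 66.8 and 44.9 CPM in WT colon libraries, against 119.8 and 78.7 CPM in Il6ra-/- and 74.4 and 186 CPM in WT libraries before transfer. WT library 1 before transfer stood alone at the top. Bax had a log2 fold change of -0.40 ± 0.35 (SE) in Il6ra-/- cells (edgeR adjusted p = 0.452) and -1.11 ± 0.35 in WT cells (edgeR adjusted p = 0.0336). Without WT library 1 before transfer the WT value was -0.32 (edgeR adjusted p = 0.464), and the call was also lost without WT colon library 0 (edgeR adjusted p = 0.0503), library 1 (0.0646) or library 2 (0.102). Genes of ribosomal proteins took 3.57% of counts in that library before transfer and 1.07% to 1.65% in the other transfer libraries, and the part of this in the Bax value was not tested.

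Pmaip1 was at 96.9, 204 and 204 CPM in Il6ra-/- and 87.0, 201 and 222 CPM in WT colon libraries, against 86.4 and 99.5 CPM in Il6ra-/- and 74.4 and 87.1 CPM in WT libraries before transfer. Colon libraries of experiment 2 were high in both genotypes, and those of experiment 1 were within or close to the range before transfer. Pmaip1 had a log2 fold change of 0.86 ± 0.41 (SE) in Il6ra-/- cells (edgeR adjusted p = 0.149) and 1.07 ± 0.41 in WT cells (edgeR adjusted p = 0.0663), and without WT colon library 0 the WT value was 1.39 (edgeR adjusted p = 0.0142). The log2 ratio of means was 0.17 and 0.23 in Il6ra-/- and WT cells in experiment 1, and 1.03 and 1.28 in experiment 2. The summed level of 10 myeloid markers moved the same way, at 98.2 and 135 CPM in the Il6ra-/- and WT colon libraries of experiment 1 and 281 to 413 CPM in those of experiment 2, and its part in the Pmaip1 level was not tested.

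Bid had 10.5, 10.2 and 8.69 CPM in Il6ra-/- and 8.65, 7.34 and 8.24 CPM in WT colon libraries, against 6.06 and 5.04 CPM in Il6ra-/- and 3.01 and 6.10 CPM in WT libraries before transfer. Colon libraries were the higher ones, with log2 fold changes of 0.82 ± 0.34 (SE) in Il6ra-/- cells (edgeR adjusted p = 0.104) and 0.83 ± 0.35 in WT cells (edgeR adjusted p = 0.0892), and 1.41 in WT cells without WT library 1 before transfer (edgeR adjusted p = 0.0192). Bak1 stayed between 76.4 and 118 CPM in all 10 transfer libraries, at log2 fold changes of 0.01 ± 0.20 (SE) in Il6ra-/- and -0.15 ± 0.20 in WT cells. Bbc3 had the widest error of the members in both genotypes, with levels of 20.9, 32.1 and 32.8 CPM in Il6ra-/- and 15.5, 25.7 and 9.62 CPM in WT colon libraries, against 12.6 and 34.8 CPM in Il6ra-/- and 6.86 and 38.3 CPM in WT libraries before transfer. Its stages overlapped. The 95% interval of its log2 fold change was -1.17 to 1.71 in Il6ra-/- and -1.83 to 1.02 in WT cells. Changes within those limits therefore remain possible. WT colon library 2, the lowest colon library for Bbc3 and Bax, had 4.28% of its counts from mitochondrial genes, against 1.56% to 2.27% in the other transfer libraries.

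Colon libraries also held RNA of other cells. Of the marker lists, 6 of 8 epithelial, 7 of 10 myeloid, 3 of 5 tested stromal and endothelial and 5 of 5 erythroid genes were higher than before transfer in Il6ra-/- cells, and 6, 9, 3 and 5 in WT cells. The summed epithelial level was 116 to 249 CPM in Il6ra-/- and 147 to 514 CPM in WT colon libraries, against 9.36 to 32.8 CPM in Il6ra-/- and 16.2 to 37.0 CPM in WT libraries before transfer, where Krt8 was at 0 in 3 of the 4. The myeloid sum was 98.2 to 388 CPM in Il6ra-/- and 135 to 413 CPM in WT colon libraries, against 15.6 to 59.2 CPM in Il6ra-/- and 20.2 to 35.3 CPM in WT libraries before transfer, and C1qc was at 0 in 3 of these 4. Of the 4 tested CD8 and NK markers, 3 were higher than before transfer in Il6ra-/- cells, and 1 was higher and 1 lower in WT cells. Their sums were 103 to 172 CPM in Il6ra-/- and 44.1 to 52.8 CPM in WT colon libraries, against 30.2 to 46.7 CPM in Il6ra-/- and 44.4 to 99.9 CPM in WT libraries before transfer. Whether the CD8 and NK markers came from other cells or from the sorted CD4+TCRb+ cells was not tested. Epithelial, myeloid, stromal, endothelial and erythroid cells express members of the family too, and their part in the colon levels was not tested. In bulk libraries, fewer cells of a type and less RNA per cell cannot be told apart.

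**Figure D3:**
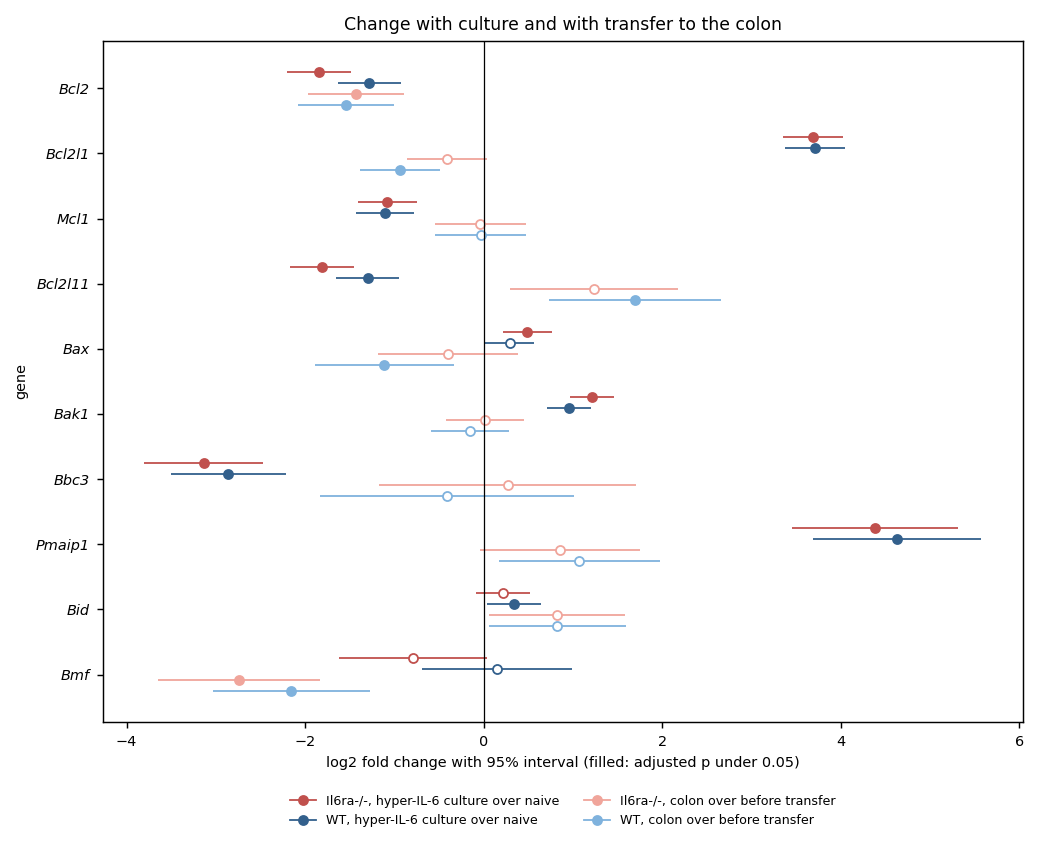
Log2 fold change of each gene (x axis, points with 95% intervals) for hyper-IL-6 culture over naive cells and for colon over before transfer, in Il6ra-/- (red) and WT cells (blue); filled points have an adjusted p under 0.05 in edgeR. Bcl2 is negative in all 4 comparisons, while Bcl2l1 is at 3.69 and 3.71 with culture and at -0.41 and -0.93 with transfer.

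The genotype comparison set Il6ra-/- against WT cells, and 0 of 10 members passed in any of the 4 settings. In the transfer part Il6ra-/- cells were CD45.2 and WT cells CD45.1, so genotype and CD45 allele cannot be told apart there. In the colon 0.155% of all genes passed (22 genes, or 94 with libraries of the same number as a block within each stage). There, 1 member had an unadjusted p under 0.05 in edgeR and 0 passed in DESeq2. That count of genes rests on every colon library, since leaving out any 1 of the 6 gave 0 to 8 genes. Before transfer 0.00703% of all genes passed (1 gene), with 0 members at an unadjusted p under 0.05 in edgeR and 0 passing in DESeq2. In hyper-IL-6 culture 0% of genes passed in edgeR, with 0 members at an unadjusted p under 0.05 and 0 in DESeq2. In naive cells 0.0067% passed (1 gene), with 1 member at an unadjusted p under 0.05 and 0 in DESeq2. Over all genes, an unadjusted p under 0.05 in edgeR was reached by 648 of 14225 in the colon and 345 of 14225 before transfer. In hyper-IL-6 culture it was reached by 351 of 14926 genes, and in naive cells by 1554 of 14926. The median log2 fold change of the members was 0.21 in the colon, 0.04 before transfer, -0.03 in hyper-IL-6 culture and 0.11 in naive cells, beside 3.92e-05, 0, 0.0037 and 0 over all genes.

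Bcl2 was the member with the unadjusted p under 0.05 in both settings. With the colon levels given above, Il6ra-/- libraries averaged 215 ± 32.3 CPM and WT libraries 151 ± 10.0 CPM (SD, n = 3). Every Il6ra-/- library was above every WT one, and pairs taken by library number gave log2 ratios of 0.37, 0.63 and 0.50. The colon log2 fold change of 0.51 ± 0.22 (SE; 95% interval 0.02 to 0.998) did not pass the adjusted threshold (edgeR adjusted p = 1). Of the 10 members, 2 had colon groups that did not overlap, Bcl2 and Bid, against 15.8% of all genes; the counts were 0 before transfer, 2 in hyper-IL-6 culture and 3 in naive cells, against 16.4%, 31.2% and 37.5%. In naive cells Il6ra-/- libraries averaged 301 ± 53.1 CPM and WT libraries 213 ± 31.2 CPM (SD, n = 2), with a log2 fold change of 0.50 ± 0.16 (SE; 95% interval 0.15 to 0.85; edgeR adjusted p = 0.366). Without a filter on low counts this value passed (edgeR adjusted p = 0.00192). In hyper-IL-6 culture the Bcl2 groups overlapped, at a log2 fold change of -0.07 (95% interval -0.42 to 0.28), and before transfer the pairs pointed opposite ways, at -0.17 and 0.99.

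Whether the culture change itself differed between genotypes was tested too. That difference, Il6ra-/- minus WT, was -0.57 ± 0.22 (SE) for Bcl2 (edgeR unadjusted p = 0.0274, adjusted p = 0.563) and -0.51 ± 0.22 for Bcl2l11 (edgeR unadjusted p = 0.0441, adjusted p = 0.579). These were the 2 members at an unadjusted p under 0.05 in that test, as were 1267 of all 14926 genes. In edgeR 0 of 10 members and 0% of all genes passed, and 0 members passed in DESeq2. With no filter on low counts, Bcl2 passed (-0.59, edgeR adjusted p = 0.0364).

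Other members had wide genotype intervals. Bmf averaged 3.57 ± 0.67 CPM in Il6ra-/- and 5.82 ± 2.05 CPM in WT colon libraries (SD, n = 3), was lower in the Il6ra-/- library of 3 of 3 pairs, and had a log2 fold change of -0.70 with a 95% interval of -1.53 to 0.13. Bbc3 averaged 28.6 ± 6.70 CPM in Il6ra-/- and 17 ± 8.12 CPM in WT colon libraries (SD, n = 3), with a log2 fold change of 0.75 and a 95% interval of -0.54 to 2.04. Mcl1 had the closest means, 676 ± 47.9 CPM in Il6ra-/- and 677 ± 84.2 CPM in WT colon libraries (SD, n = 3), and its 95% interval of -0.46 to 0.46 still allows a difference of that size. In naive cells Bbc3 passed when WT naive library 2 was left out (-0.57, edgeR adjusted p = 0.0424), where the 1 remaining WT library is assumed to vary like the other groups. Across the members, 95% intervals in hyper-IL-6 culture lay between -1.06 and 0.62, and before transfer between -1.49 and 1.63. Of 5 CD8 and NK markers, 4 were tested in the colon and 1, Klrd1, was higher in Il6ra-/- cells, with list sums of 103 to 172 CPM in Il6ra-/- and 44.1 to 52.8 CPM in WT colon libraries. In the same contrast 0 of 6 Th17 markers passed. Which cells the CD8 and NK markers came from, and the part of those cells in the member levels, was not tested.

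**Figure D4:**
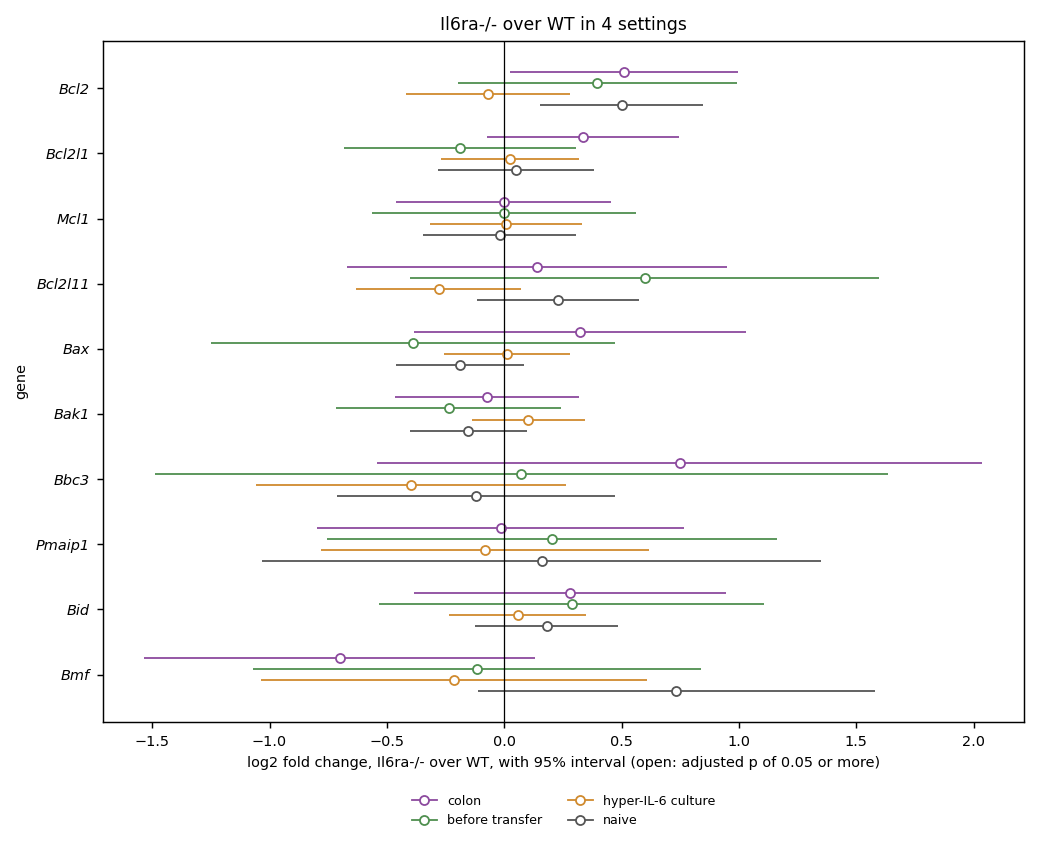
Log2 fold change, Il6ra-/- over WT (x axis, points with 95% intervals), of each gene in the colon, before transfer, in hyper-IL-6 culture and in naive cells; all points are open because none of the 40 adjusted p-values in edgeR was under 0.05. Bcl2 lies at 0.51 in the colon and 0.50 in naive cells, and Mcl1 lies between -0.02 and 0.0073 in all 4 settings.

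Between hyper-IL-6 and IL-6 in WT cultures, 0 of 10 members passed in edgeR, where 0% of all genes did, and 0 passed in DESeq2. An unadjusted p under 0.05 in edgeR was reached by 226 of all 14926 genes and by 1 member. That member was Bmf, at 6.38 and 5.32 CPM with hyper-IL-6, against 3.45 and 2.19 CPM with IL-6. Its groups did not overlap, nor did those of Bcl2l11, Bak1 and Bbc3, against 26.8% of all genes. The log2 fold change of Bmf was 1.04 ± 0.38 (SE; 95% interval 0.20 to 1.89; edgeR adjusted p = 1). For the anti-apoptotic genes the intervals were -0.34 to 0.36 for Bcl2, -0.20 to 0.39 for Bcl2l1 and -0.36 to 0.29 for Mcl1, which are differences on the log2 scale.

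Levels of different genes were compared per kilobase of exon. Mcl1 had the highest mean level in every group, from 118 to 254 CPM per kb. Bax came next in all 5 culture-part groups, at 63.6 ± 7.88, 63.1 ± 0.63 and 63.8 ± 4.13 CPM per kb in Il6ra-/- hyper-IL-6, WT hyper-IL-6 and WT IL-6 cultures and 45.3 ± 1.2 and 51.6 ± 8.10 CPM per kb in Il6ra-/- and WT naive cells (SD, n = 2). Bcl2l1 was the third in cultures, at 50.7 to 55.0 CPM per kb, and the eighth in naive cells, at 4.14 to 4.28 CPM per kb. In the colon the second place was held by Pmaip1, at 61.6 ± 22.6 CPM per kb in Il6ra-/- and 62.2 ± 26.5 CPM per kb in WT cells (SD, n = 3), and its libraries of experiment 1, at 35.5 and 31.9 CPM per kb, were below Bax and Bak1.

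The balance between roles was read as the share of the family's summed level per kb. The anti-apoptotic share was 56.5% ± 2.05 in Il6ra-/- hyper-IL-6, 56.5% ± 0.28 in WT hyper-IL-6 and 56.6% ± 0.86 in WT IL-6 cultures, against 72.2% ± 0.08 in Il6ra-/- and 70.4% ± 0.23 in WT naive cells (SD, n = 2). All 6 cultures were below all 4 naive libraries. Effectors held 34.7% ± 2.30 and 33.9% ± 0.36 in Il6ra-/- and WT hyper-IL-6 cultures, against 16.7% ± 0.13 and 19.0% ± 1.63 in Il6ra-/- and WT naive cells (SD, n = 2). Mcl1 sets this direction, since without it the anti-apoptotic share was 31.4%, 31.3% and 30.3% in the cultures, against 25.1% and 19.3% in Il6ra-/- and WT naive cells, which turns the order round.

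In the colon the BH3-only share was 16.3%, 24.6% and 24.9% in Il6ra-/- and 16.4%, 24.6% and 23.9% in WT libraries, against 11.3% and 14.4% in Il6ra-/- and 10.0% and 12.1% in WT libraries before transfer. Every colon library was higher, and Pmaip1 alone gave 9.55% to 19.5% of the family in the colon libraries, against 6.22% to 7.95% before transfer. The anti-apoptotic share was 56.4% ± 3.41 in Il6ra-/- and 57.3% ± 1.93 in WT colon cells (SD, n = 3), against 63.0% ± 7.84 in Il6ra-/- and 60.4% ± 7.20 in WT cells before transfer (SD, n = 2), and these ranges overlapped. Without Mcl1 they did not, at 13.9% to 17.4% in Il6ra-/- and 11.5% to 14.6% in WT colon libraries, against 28.3% and 36.2% in Il6ra-/- and 35.6% and 18.8% in WT libraries before transfer. The log2 ratio of Bcl2 to Bcl2l11 per kb was 1.01, 0.79 and 0.81 in Il6ra-/- and 0.41, 0.38 and 0.68 in WT colon libraries, against 4.20 and 3.18 in Il6ra-/- and 4.58 and 2.96 in WT libraries before transfer. The stages did not overlap, and every Il6ra-/- colon library was above every WT one. In the culture part the same ratio was 1.23 ± 0.02, 1.03 ± 0.25 and 1.25 ± 0.14 in Il6ra-/- hyper-IL-6, WT hyper-IL-6 and WT IL-6 cultures, against 1.26 ± 0.34 and 1.01 ± 0.52 in Il6ra-/- and WT naive cells (SD, n = 2), differences smaller than the spread. No test was made on these shares and ratios, which are combinations of the members.

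**Figure D5:**
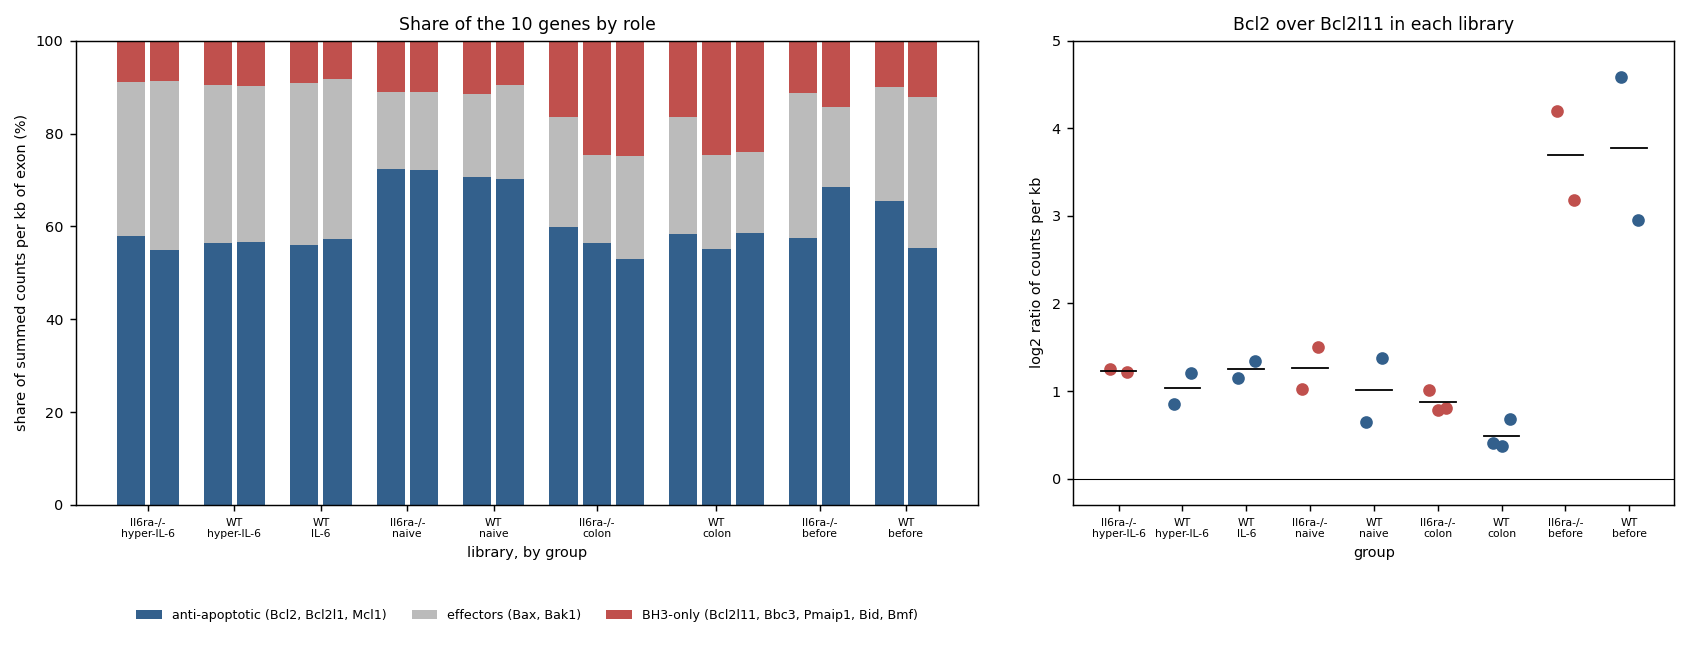
Left, share (%) of the summed counts per kb of exon held by anti-apoptotic, effector and BH3-only genes in each of the 20 libraries; right, log2 ratio of Bcl2 to Bcl2l11 per kb in each library (points) with the group mean (bars), Il6ra-/- red and WT blue. The BH3-only share is 16.3% to 24.9% in colon libraries, and the ratio is at most 1.01 there and at least 2.96 before transfer.

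Genes around the family were read from 7 lists. No gene of these lists passed between the genotypes in the colon, before transfer, in hyper-IL-6 culture or in naive cells in edgeR. With transfer, 1 of the 10 tested other BCL-2 family genes rose and 4 fell in Il6ra-/- cells, and 1 rose and 5 fell in WT cells, at list medians of -0.14 and -0.69 beside -0.0022 and -0.02 over all genes. Bnip3, a mitophagy gene induced by low oxygen, was at 0.556 ± 0.120 CPM in Il6ra-/- and 0.748 ± 0.206 CPM in WT colon cells (SD, n = 3), against 80.0 ± 26.7 and 118 ± 10.6 CPM before transfer (SD, n = 2), at log2 fold changes of -7.13 and -7.29 (edgeR adjusted p = 1.23e-06 and 8.42e-07). Bcl2a1b, an anti-apoptotic gene with near-identical copies that makes its count uncertain, rose by 2.25 and 2.50 on the log2 scale in Il6ra-/- and WT cells (edgeR adjusted p = 0.000571 and 0.000332).

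Of 10 death receptor genes, 3 rose and 1 fell in Il6ra-/- cells and 4 rose and 3 fell in WT cells. Fasl, the Fas ligand gene, averaged 150.2 ± 25.5 CPM in Il6ra-/- and 90.9 ± 29.3 CPM in WT colon cells (SD, n = 3), against 4.25 ± 0.58 and 6.49 ± 2.31 CPM before transfer (SD, n = 2). Tnfsf10, the TRAIL gene, averaged 287 ± 21.3 CPM in Il6ra-/- and 203 ± 27.3 CPM in WT colon cells, against 24.6 ± 2.86 and 26.9 ± 16.7 CPM before transfer. The log2 fold change of Fasl was 5.14 in Il6ra-/- (edgeR adjusted p = 1.44e-05) and 3.81 in WT cells (edgeR adjusted p = 5.03e-05), and that of Tnfsf10 was 3.54 in Il6ra-/- (edgeR adjusted p = 8.23e-05) and 2.91 in WT cells (edgeR adjusted p = 0.000231). The CD8 and NK sums given above moved with them in Il6ra-/- cells, and their part in these levels was not tested. The p53 targets, 14 genes, fell in 6 and rose in 0 in each genotype, beside 13.2% of all genes lower and 13.8% higher in Il6ra-/- cells and 15.8% lower and 17.1% higher in WT cells. These shares also stand behind the other lists with transfer. Among them was Cdkn1a, the p21 gene, at 30.2 ± 9.92 and 23.1 ± 7.65 CPM in Il6ra-/- and WT colon cells (SD, n = 3) against 129 ± 21.7 and 146 ± 21.2 CPM before transfer (SD, n = 2).

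Of 21 FOXO and survival cytokine genes, 1 rose and 8 fell in Il6ra-/- cells and 2 rose and 7 fell in WT cells, where 13.2% and 15.8% of all genes fell. Il2ra, the high-affinity chain of the IL-2 receptor, fell by 2.58 and 3.07 on the log2 scale, and Pim2, a survival kinase gene, by 1.64 and 3.00, in Il6ra-/- and WT cells. Il6st, the gene for the shared IL-6 receptor chain gp130, fell by 1.53 and 1.98, and Stat5a by 1.53 and 1.76. The largest edgeR adjusted p among these 8 values was 0.00324. Of 13 caspase and apoptosome genes, 1 rose and 1 fell in Il6ra-/- cells and 1 rose and 3 fell in WT cells. Of 7 inhibitor of apoptosis genes, 2 rose and 1 fell in Il6ra-/- cells and 3 rose and 1 fell in WT cells, and of 6 tested genes of MCL-1 turnover 1 rose and 0 fell in each genotype. The other list medians lay between -0.21 and 0.43 in Il6ra-/- and between -0.43 and 0.81 in WT cells. Naip2 and Naip5, inflammasome sensors in the inhibitor of apoptosis list that macrophages are known to express, rose in both genotypes. Naip2 averaged 33.3 ± 5.28 CPM in Il6ra-/- and 32.8 ± 3.81 CPM in WT colon cells (SD, n = 3), against 3.36 ± 0.63 and 2.24 ± 0.05 CPM before transfer (SD, n = 2), beside the myeloid sums given above.

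With hyper-IL-6 culture more genes of the same 7 lists passed, as among all genes. Of all genes, 37.5% rose and 34.4% fell in Il6ra-/- cells, and 36.8% rose and 33.5% fell in WT cells. These shares stand behind every list count with hyper-IL-6. Other BCL-2 family genes rose in 5 and fell in 1 of 11 in Il6ra-/- cells and rose in 6 and fell in 4 in WT cells, led by Bcl2l2, the BCL-w gene, at 32.8 ± 2.54 and 33.6 ± 1.87 CPM in Il6ra-/- and WT cultures against 3.09 ± 0.38 and 2.27 ± 0.51 CPM in naive cells (SD, n = 2). Among 13 caspase and apoptosome genes, 5 rose and 2 fell in Il6ra-/- and 4 rose and 2 fell in WT cells, with the initiator gene Casp9 at -1.51 and -1.61 on the log2 scale. The p53 targets rose in 9 and fell in 3 of 14 in Il6ra-/- cells and rose in 9 and fell in 2 in WT cells, with Cdkn1a at 74.0 ± 13.8 and 80.2 ± 10.9 CPM in cultures against 0.214 ± 0.136 and 0.461 ± 0.592 CPM in naive cells (SD, n = 2).

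Receptors of survival cytokines moved in opposite directions in culture. Il7r, the IL-7 receptor gene, was at 70.1 ± 5.83 and 69.3 ± 0.0049 CPM in Il6ra-/- and WT hyper-IL-6 cultures, against 698 ± 99.1 and 666 ± 6.42 CPM in naive cells (SD, n = 2), while Il2ra was at 1383 ± 10.7 and 1430 ± 9.48 CPM against 9.39 ± 1.16 and 13.7 ± 0.80 CPM. Klf2, a quiescence factor gene, was at 0.647 ± 0.125 and 0.912 ± 0.023 CPM against 1060 ± 7.37 and 958 ± 169 CPM. In the FOXO and survival cytokine list 10 rose and 10 fell in Il6ra-/- cells and 9 rose and 12 fell in WT cells, out of 21. Inhibitor of apoptosis genes rose in 2 and fell in 4 of 7 in each genotype. Death receptor genes rose in 2 and fell in 6 of 10 in Il6ra-/- cells and rose in 2 and fell in 7 in WT cells, and MCL-1 turnover genes rose in 2 and fell in 3 of 7 in Il6ra-/- cells and rose in 2 and fell in 2 in WT cells. With IL-6 in WT cells 37% of all genes rose and 33.6% fell. Beside these shares, 6 other BCL-2 family genes rose and 2 fell, and 9 p53 targets rose and 3 fell. In that comparison 9 FOXO and cytokine genes rose and 11 fell, and 2 death receptor genes rose and 7 fell. A further 4 caspase genes rose and 2 fell, 2 inhibitors of apoptosis rose and 4 fell, and 2 MCL-1 turnover genes rose and 2 fell. List medians over naive cells ran from -1.05 (inhibitors of apoptosis) to 1.68 (other BCL-2 family) in Il6ra-/- cells and from -1.03 to 1.84 for the same lists in WT cells with hyper-IL-6, beside 0.04 over all genes.

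The genes most like each member were ranked by the smaller of its Pearson correlations over the 10 transfer and the 10 culture libraries, among 8954 genes, as a description in which libraries of 1 group share their treatment. For Bcl2 they were Abhd18 (0.97), Rnf145 (0.96) and Stat5b (0.95), for Bcl2l1 Nup37 (0.96), Cstf1 (0.96) and Bloc1s5 (0.95), and for Mcl1 Letm2 (0.96), Il21r (0.91) and Zer1 (0.91). For Bax they were Snapc2, Atp5d and Cox7a2 and for Bak1 Mrpl18, Exosc3 and Samm50, all at 0.95 or more. For Bcl2l11 they included Inpp1 and Ripor2, both at 0.97. Pmaip1 had Slc3a2, Tgif1 and Rbm3 (0.93 to 0.96), Bbc3 had Frmd8, Ist1 and Ttc5 (0.92 to 0.95), Bmf had Aktip, Caprin2 and Scmh1 (0.78 to 0.89) and Bid had Lpxn, Podnl1 and Zfp827 (0.82 to 0.83).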

How the data were processed

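Gene counts of 20 libraries were used as the authors deposited them, as whole-number counts per Ensembl gene ID with 5 summary lines. Per the submitters' processing notes, the builds were GRCm38 and mm10 and the tools HTSeq (version 0.7.2), STAR (2.5.3), SAMtools (0.1.18), R (3.4.3) and DESeq2 (1.18.1); annotation release and strand setting are not given in the sources used here beyond the word reverse in the file names. Reads in no feature were 18.1% to 31.9% and ambiguous reads 0.526% to 0.844% of these and gene counts together, and stayed out of library sizes. Of the IDs, 37693 had a symbol.

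Each part was fitted alone on all its 10 libraries in edgeR 4.0.16 (R 4.3.3) with expression filter, TMM scaling, group means and the quasi-likelihood F-test, and p-values were adjusted by Benjamini-Hochberg over 14225 (transfer) and 14926 (culture) genes. The common biological coefficient of variation was 0.309 and 0.124, with 6 and 5 residual degrees of freedom. Intervals are 95%. Log2 CPM for correlations used a prior count of 2, and levels per kb used the union of exons. Steps were tested on simulated data. Alternatives were RLE size factors, no filter, DESeq2 1.42.0, the replicate number as a block, compared groups only, an experiment term, transfer fits without WT library 1 before transfer and WT colon library 2, longest transcript lengths, the share without Mcl1, and leaving out each library.

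The members, 7 pathway lists and 9 marker lists (T cell, naive, Th17, CD8 and NK, B cell, myeloid, epithelial, stromal and endothelial, erythroid) were chosen with earlier results of these data known. All members are named; of each list up to 4 genes per comparison are named, those past the threshold with the largest change and a mean log2 CPM of at least 2. The list genes Bcl2a1a and Bcl2a1d were not matched by symbol and were not analysed here. Some items that these rules select are not reported here. Naive markers summed to 338 to 461 CPM in hyper-IL-6 cultures and 3712 to 4075 CPM in naive cells, 613 to 811 CPM in the colon and 1195 to 2779 CPM before transfer, and B cell markers to at most 13.6 CPM in any library. Erythroid markers summed to at most 11.6 CPM, and stromal and endothelial ones to 117 to 169.5 CPM in the colon and 126 to 149 CPM before transfer.

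Within a stage, libraries with the same number came, per the labels, from cells co-transferred or cultured in the same experiment. Numbers were taken to pair them there. Their correlations of deviations were 0.580, 0.237 and 0.183 in the colon and 0.430 before transfer. Libraries with different numbers were not correlated, so these values cannot tell a pair from a shared experiment. A block of these pairs within a stage, chosen after seeing the data, changed 0 member calls. No replicate pair agreed within sampling noise, the lowest mean chi-square per gene being 6.73.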

Additional observations from a re-analysis of the deposited data

How the results depend on the processing

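Of 1320 member fold changes recomputed under an alternative, 22 lost and 24 gained the threshold and 0 called ones turned sign. With no filter on low counts 1 member passed between genotypes in naive cells and 1 in the genotype difference of the culture effect; leaving out 1 library gave 0 to 1 in naive cells. With the replicate number as a block, members called were 0 between genotypes in all 4 settings, 3 and 4 with transfer in Il6ra-/- and WT cells, and 8, 7 and 8 with culture in Il6ra-/- hyper-IL-6, WT hyper-IL-6 and WT IL-6 cells, where the numbers do not pair libraries (correlations of deviations -0.143 to 0.156). All-gene counts in those fits were 3422 and 3999 of 14225 with transfer and 10579, 10335 and 10367 of 14926 with culture. That block lost Bax and gained Bcl2l11 with transfer (edgeR adjusted p = 0.0762 in WT and 0.0105 in Il6ra-/- cells) and lost Bid and Bax in WT cultures (0.0516 and 0.0611). DESeq2 called Bcl2l11 with transfer in Il6ra-/- cells and Pmaip1 and Bid in WT cells (adjusted p = 0.0178, 0.0279 and 0.0428). Without the 2 transfer libraries that stand apart (WT library 1 before transfer in ribosomal protein counts, WT colon library 2 in mitochondrial counts), Bax was at -0.18 and Bcl2l11 at 2.30 in WT cells.

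Between genotypes, all-gene counts were 133 (DESeq2), 120 (no filter), 108 (compared groups only), 42 (experiment term) and 39 (block) in the colon, 26 (DESeq2) and 17 (no filter) before transfer, with 0 to 1152 when 1 library was left out, the highest without WT library 0, and 95 (DESeq2), 439 (no filter) and 5 (compared groups only) in naive cells, with 0 to 902, the highest without WT library 2. The culture-effect difference had 271 (no filter) and 51 (DESeq2).

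Without Mcl1 the anti-apoptotic share was 31.4%, 31.3%, 30.3%, 25.1% and 19.3% in Il6ra-/- hyper-IL-6, WT hyper-IL-6, WT IL-6, Il6ra-/- naive and WT naive cells, and 15.7%, 12.8%, 32.2% and 27.2% in Il6ra-/- colon, WT colon, Il6ra-/- and WT cells before transfer. With longest transcripts it was 67.4%, 65.3% and 54.8% in Il6ra-/- naive, WT naive and WT colon cells, and the log2 ratio of Bcl2 to Bcl2l11 was 0.91, 0.71, 0.92, 0.55 and 0.16 in Il6ra-/- hyper-IL-6, WT hyper-IL-6, WT IL-6, Il6ra-/- colon and WT colon cells. Groups of 2 or 3 libraries limit all intervals.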
